A study of Mus musculus with 16 samples.

Results

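Semaphorins, plexins and neuropilins were described here as 1 family of guidance genes in cells captured from the cortex of mouse embryos. Members were the rows of the count table whose gene symbol begins with Sema3 to Sema7 and a letter from a to g, begins with Plxna, Plxnb, Plxnc or Plxnd, or is Nrp1 or Nrp2. The rule found 32 of 24539 genes: 20 semaphorins, 9 plexins, 2 neuropilins and Plxna4os1, a transcript antisense to Plxna4. All captured cells came from CD1 embryos carrying 1 GAD67-GFP allele (GAD67-GFP+/-), in which green fluorescent protein marks GABAergic cells, at embryonic day 14.5. Their dams received alpha-cypermethrin, a pyrethroid insecticide, at 10 mg/kg or corn oil by gavage on each of gestational days 11 to 14, with the last dose 90 min before euthanasia. Dams of the stressed groups were also restrained under bright light, in sessions lasting 45 min, on days 12, 13 and 14, the last of which ended 15 min before euthanasia. The 4 groups were vehicle non-stressed, cypermethrin non-stressed, vehicle stressed and cypermethrin stressed, with 4 embryos each from separate litters, labelled male. About 100 GFP-positive cells at the front of the migrating stream in the cortical plate were cut by laser from each of 10 paraformaldehyde-fixed sections per embryo, and their total RNA was sequenced.

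Semaphorins are secreted or membrane-bound guidance proteins, and plexins are their receptors, whose intracellular part acts on small GTPases and so on the actin and microtubule skeleton of the growing process. The secreted class 3 semaphorins mostly bind a neuropilin, which forms the receptor with a class A plexin, whereas most membrane-bound classes bind plexins directly. In the embryonic forebrain, neuropilin-bearing interneurons migrating from the ganglionic eminences to the cortex are turned away from the striatum by Sema3a and Sema3f.

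The promoters of 3 members are shown because the exposure comparisons below turn on Sema5b, Sema5a and Plxna2. The sequences are RefSeq's for GRCm38.p6, cover the bases from 250 to 11 before the annotated start on the plus strand, and have matches to the GC box GGGCGG on either strand in capitals. The Sema5b window is chr16:35541112-35541351, the Sema5a window chr15:32244563-32244802 and the Plxna2 window chr1:194619579-194619818.
Sema5b: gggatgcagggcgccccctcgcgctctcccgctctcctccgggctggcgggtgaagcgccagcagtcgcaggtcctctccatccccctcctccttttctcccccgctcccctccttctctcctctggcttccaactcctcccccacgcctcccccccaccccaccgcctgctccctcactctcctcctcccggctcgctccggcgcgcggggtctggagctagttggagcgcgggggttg
Sema5a: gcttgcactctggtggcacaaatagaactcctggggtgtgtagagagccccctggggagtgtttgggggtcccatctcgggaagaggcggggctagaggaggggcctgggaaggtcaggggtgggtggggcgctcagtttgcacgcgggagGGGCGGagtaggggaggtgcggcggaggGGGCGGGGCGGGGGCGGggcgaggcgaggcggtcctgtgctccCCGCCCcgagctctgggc
Plxna2: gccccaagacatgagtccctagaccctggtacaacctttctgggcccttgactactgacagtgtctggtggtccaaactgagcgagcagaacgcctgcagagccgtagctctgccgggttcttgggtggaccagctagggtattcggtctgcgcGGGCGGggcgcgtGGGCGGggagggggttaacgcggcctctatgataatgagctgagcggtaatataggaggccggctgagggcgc
The Sema5b window has a GC content of 72.1% and 19 CpG dinucleotides, and holds no match to the GC box. The Sema5a window, with 71.7% GC and 16 CpG, holds 5 matches, some of which overlap each other. The Plxna2 window, with 62.1% GC and 16 CpG, holds 2 matches. In GENCODE vM21, 1 further transcript of Sema5b begins inside its window and 1 of Plxna2 begins before its window. Of the 32 members, 26 had 1 or more promoters in the RefSeq table, 37 in all, and 26 of these 37 windows (70.3%) held a GC box, against 31.3% of all 32851 windows of the table. The median GC content was 63.8% in the family's windows and 52.1% in all windows. The letters AGAACA, bound by the glucocorticoid receptor as part of its element, were in 18.9% of the family's windows and in 15.5% of all windows. TGACG, the core of the cAMP response element, was in 2.7% against 16.9%, and the AP-1 site TGANTCA in 8.11% against 6.58%. None of these 3 other motifs was found in the 3 windows printed, searched on both strands, which says only that those letters are not there.

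Total counts per library ranged from 2291283 to 4324129, and the family took 0.347% to 0.435% of them. The library labelled vehicle stressed replicate 1 went against its male label, with 9521 counts of Xist and 1 count over 4 Y-linked genes, where the other 15 libraries had 0 to 26 and 555 to 1477. Values without it are given beside the results that depended on it strongly. All 16 markers fixed for interneurons of the medial ganglionic eminence passed the filter on low counts, with summed levels of 2024 to 3297 CPM (counts scaled by the library's total). The labels call the cells neural progenitors, and the 11 markers of radial glia and intermediate progenitors, 9 of them tested, summed to 621 to 894 CPM. Markers of glutamatergic neurons summed to 4499 to 7574 CPM, those of Cajal-Retzius cells to 1780 to 3467 CPM, and those of pericytes and meningeal fibroblasts to 1464 to 4293 CPM. RNA of other cells was therefore present in the captures. In such material, fewer cells of a type and less RNA per cell cannot be told apart. The library names carry 2 different codes, for 7 and 9 libraries, and no source explains them; several results were also computed within each code.

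Levels of different genes were compared as CPM per kilobase of annotated exon, as mean ± SD over 16 libraries. Plxna2, a receptor for class 6 semaphorins and a partner of neuropilins, had the highest level, 70.8 ± 10.3 CPM per kb. Its lowest library stood at 978 CPM, its median library at 1195 CPM and its highest at 1646 CPM, and it lay above Sema6a per kb in 16 of 16 libraries. The other class A plexins followed at 30.8 ± 10.8 (Plxna1), 24.8 ± 6.65 (Plxna3) and 21.9 ± 8.55 CPM per kb (Plxna4). Plxnd1, a receptor of Sema3e best known from blood vessels, stood at 25.4 ± 7.34 CPM per kb. The receptors Plxnb2 (11.2 ± 3.02), Plxnc1, which binds Sema7a (9.64 ± 2.61), and Plxnb1, which binds Sema4d (6.74 ± 2.35), were lower. The neuropilins, which the class 3 semaphorins mostly bind, had 6.16 ± 2.13 (Nrp2) and 4.68 ± 2.64 CPM per kb (Nrp1), below all 4 class A plexins in mean level. With the longest annotated transcript as length, Nrp1 rose from place 22 to 12 and Nrp2 from 18 to 15, so their order was reversed.

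Among the ligands, the membrane-bound Sema6a, which binds Plxna2 and Plxna4, had the highest level at 35.0 ± 11.1 CPM per kb. Sema4g followed at 28.6 ± 6.02 and Sema6d, a ligand of Plxna1, at 16.5 ± 3.05 CPM per kb. Sema3a, the founding secreted repellent, stood first of its class at 11.8 ± 2.99 CPM per kb, ahead of Sema3f (6.47 ± 1.75), Sema3c (4.75 ± 2.49), Sema3d (1.15 ± 0.745) and Sema3e (0.449 ± 0.291). The lipid-anchored Sema7a had 10.9 ± 4.37 CPM per kb. Sema4d (7.79 ± 3.85), Sema4c (6.99 ± 4.53), Sema6c (6.55 ± 1.74), Sema5a (4.95 ± 1.57), Sema6b (4.45 ± 3.01), Sema4f (3.96 ± 3.22), Sema5b (3.89 ± 2.63), Sema4b (3.84 ± 2.29) and Sema4a (2.89 ± 1.87 CPM per kb) lay between Sema7a and Sema3d. Plxna4os1, at 4.70 ± 4.27 CPM per kb, lies on the opposite strand within Plxna4 without sharing an exon, and whether the counting used strand is not given. Of 32 members, 29 had enough counts to be tested, and the others were Sema3g with 52 counts over all libraries, Sema3b with 49 and Plxnb3 with 46. Plxnb3, a receptor of Sema5a, had no count in 11 of 16 libraries, all 4 vehicle stressed libraries among them.

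**Figure D1:**
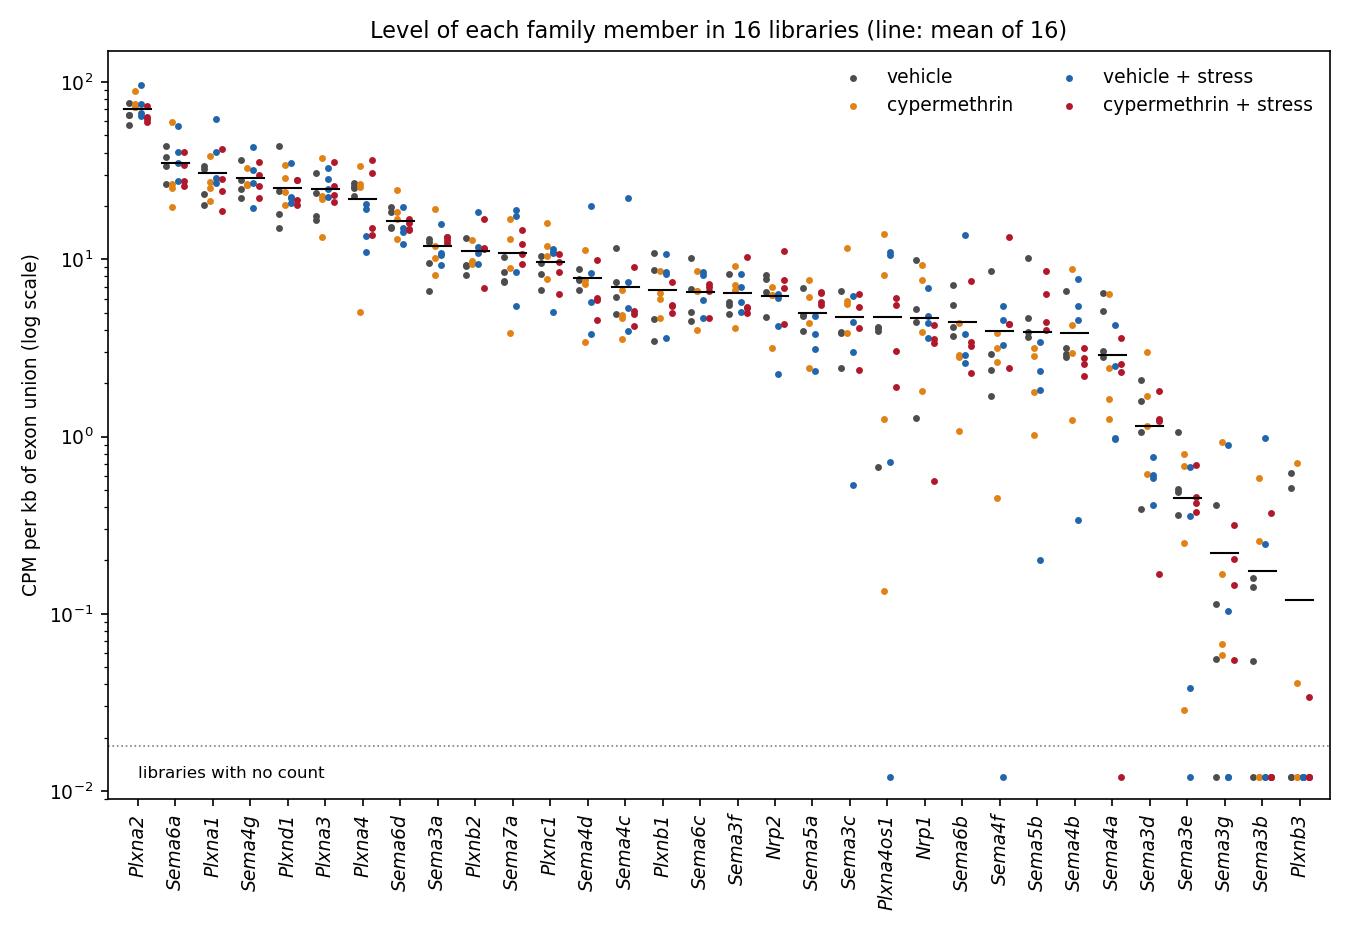
Level of each of the 32 members in CPM per kb of exon (log scale), 1 point per library coloured by group, with a line at the mean of 16 libraries and libraries without a count drawn below the dotted line. Plxna2 stands apart at 70.8 CPM per kb, and Sema6a, Plxna1, Sema4g, Plxnd1, Plxna3 and Plxna4 follow. The spread widens towards the right, where Sema3g, Sema3b and Plxnb3 have libraries with no count.

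Most neighbours in this order did not differ beyond their spread. The paired log2 difference exceeded its SD for Plxna2 over Sema6a (1.07 ± 0.39, SD, n = 16 libraries) and for Sema6d over Sema3a (0.51 ± 0.41, higher in 15 of 16). With the longest annotated transcript in place of all exons, Plxna2 kept the first place and Sema4g took the second. That choice moved 9 of 29 levels by more than their SD over libraries, those of Sema6d and Sema3a among them. Their exons cover 10559 and 13868 bp, and their longest transcripts 6444 and 5930 bp, so the step between these 2 depends on the length used. The variation between libraries of a group, as edgeR's biological coefficient of variation, was 0.19 for Plxna2, 0.24 for Sema6d and 0.246 for Sema4g, and reached 0.973 for Plxna4os1 and 0.939 for Sema3e, against 0.586 over all genes. For the weakly expressed members, the 4 libraries of a group therefore could show only large differences.

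No member passed an adjusted p of 0.05 (edgeR's quasi-likelihood test, Benjamini-Hochberg over 13224 genes) in any of 8 comparisons, and neither did any other gene: 0% of all genes tested were called in each. The members are therefore described by unadjusted p-values under 0.05, beside the share of all genes with one, and by groups of 4 libraries that do not overlap. These comparisons share libraries with each other, so they are not independent.

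The first comparison asked how cypermethrin alone differed from vehicle. Sema5b, a membrane-bound class 5 semaphorin known to repel axons and to bind class A plexins, had 72.05, 25.6, 27.5 and 32.9 CPM in the vehicle non-stressed libraries and 22.4, 20.0, 7.17 and 12.6 CPM in the cypermethrin non-stressed libraries. All 4 exposed libraries lay below all 4 vehicle libraries. The fitted log2 difference was -1.34 ± 0.57 (SE; edgeR unadjusted p = 0.0274, adjusted p = 0.999). It was -0.87 without vehicle non-stressed replicate 1, the highest library. Sema5b was the only member of 29 with an unadjusted p under 0.05 and the only one whose groups did not overlap, where 3.71% and 2.52% of all genes did the same. Plxna2, with the second smallest p, had 1313, 978, 1116 and 1119 CPM without and 1244, 1294, 1235 and 1518 CPM with cypermethrin, and these groups overlapped (0.23 ± 0.14, SE; edgeR adjusted p = 0.999; 0.12 and 0.27 within the first and second library code). Of 29 members, 17 were fitted higher, where 52.4% of all genes were, with a median log2 difference of 0.04 against 0.03 over all genes.

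Restraint stress without cypermethrin gave a like picture for Sema5b. The vehicle stressed libraries had 1.43, 16.6, 24.2 and 13.0 CPM, all below the 4 vehicle non-stressed libraries given above. The fitted difference was -1.50 ± 0.58 (SE; edgeR unadjusted p = 0.0147, adjusted p = 0.965), and it was -1.14 without vehicle stressed replicate 1, the lowest library. It was -2.40 within the first library code and -0.70 within the second. Here too Sema5b was the only member with an unadjusted p under 0.05, beside 5.08% of all genes. Without vehicle stressed replicate 1, Plxnb3 passed the filter on low counts and joined it, 2 of 30 members beside 3.47% of genes. Its counts were 0, 0, 16 and 13 in the vehicle non-stressed and 0, 15, 1 and 0 in the cypermethrin non-stressed libraries. Plxnb3 passed the filter only through these non-stressed libraries, so its p-value for stress carries no weight. Plxna4, the class A plexin that also binds Sema6a, had 363, 381, 355 and 319 CPM in the vehicle non-stressed libraries and 287, 155, 272 and 192 CPM in the vehicle stressed libraries. Its groups did not overlap either, so that 2 members were set apart in this way, beside 2.9% of all genes, but its fitted difference of -0.65 ± 0.41 (SE) had an edgeR unadjusted p of 0.13. Plxna1 had 303, 292, 211 and 184 CPM in the vehicle non-stressed and 558, 244, 365 and 260 CPM in the vehicle stressed libraries. These groups overlapped, and the difference of 0.53 ± 0.26 (SE; edgeR unadjusted p = 0.0555, adjusted p = 0.965) was 0.23 without vehicle stressed replicate 1.

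With both exposures, Sema5b stood where it stood with neither. The cypermethrin stressed libraries had 61.0, 45.2, 31.1 and 28.2 CPM, which overlap the range of the vehicle non-stressed libraries, and the difference was 0.07 ± 0.56 (SE; edgeR adjusted p = 1), with a 95% interval from -1.08 to 1.21. No member had an unadjusted p under 0.05 for both exposures against neither, beside 1.49% of all genes, and none had groups that did not overlap, beside 2.62%. Without vehicle stressed replicate 1, Plxnb3 had an unadjusted p under 0.05, as had 2.33% of genes, with the limit given above for its counts. The smallest p belonged to Nrp1, the neuropilin that binds Sema3a, with 12.5, 97.0, 51.2 and 43.2 CPM with neither and 5.49, 32.8, 41.7 and 34.6 CPM with both. These ranges overlapped widely (-0.83 ± 0.55, SE; edgeR adjusted p = 1), and the difference was -0.32 without vehicle non-stressed replicate 2. It was -1.51 within the first library code and -0.31 within the second. Sema4a had 34.7, 27.8, 16.4 and 15.2 CPM with neither and 0, 19.4, 13.9 and 12.5 CPM with both (-1.03 ± 0.80, SE; edgeR adjusted p = 1). It was -0.62 without cypermethrin stressed replicate 1, the library with no count, and -1.68 and -0.26 within the codes.

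Among stressed dams, 2 members had an unadjusted p under 0.05 for cypermethrin against vehicle, both higher with cypermethrin, beside 5.39% of all genes in either direction. They are the 2 class 5 semaphorins. Sema5b was higher in each of the 4 cypermethrin stressed libraries than in any vehicle stressed library (1.57 ± 0.58, SE; edgeR unadjusted p = 0.0112, adjusted p = 0.902). The difference was 2.52 within the first library code and 0.67 within the second. Without vehicle stressed replicate 1, a library of the first code, it was 1.21. Sema5a, which carries the same class of extracellular thrombospondin repeats and can attract or repel axons, had 58.5, 88.9, 43.8 and 70.5 CPM in the vehicle stressed libraries and 103, 121, 121 and 108 CPM in the cypermethrin stressed libraries. These groups did not overlap, which held for these 2 members and for 3.04% of all genes. The difference was 0.79 ± 0.31 (SE; edgeR unadjusted p = 0.0178, adjusted p = 0.902). Without stress, Sema5a did not separate: its vehicle libraries had 89.9, 73.7, 90.6 and 128 CPM and its cypermethrin libraries 142, 114, 81.8 and 45.3 CPM. Of 29 members, 10 were fitted higher, where 49% of all genes were, with a median of -0.09 against -0.01 over all genes. Without vehicle stressed replicate 1, Nrp2 and Sema4b joined these 2 members, 4 in all, beside 3.65% of genes.

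Among cypermethrin-exposed embryos, Sema5b was again the only member with an unadjusted p under 0.05 for stress, beside 4.31% of all genes, and the only one with groups that did not overlap, beside 2.58%. It was higher in the stressed libraries (1.40 ± 0.57, SE; edgeR unadjusted p = 0.0212, adjusted p = 0.997). Plxna2, next by p, had 1258, 1096, 1018 and 1062 CPM in the cypermethrin stressed libraries, and only the first of them lay within the range of the cypermethrin non-stressed libraries (-0.26 ± 0.14, SE; edgeR adjusted p = 0.997). This difference was -0.09 within the first library code and -0.38 within the second. With vehicle stressed replicate 1 left out, Sema4f joined Sema5b, 2 members beside 6.03% of genes.

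**Figure D2:**
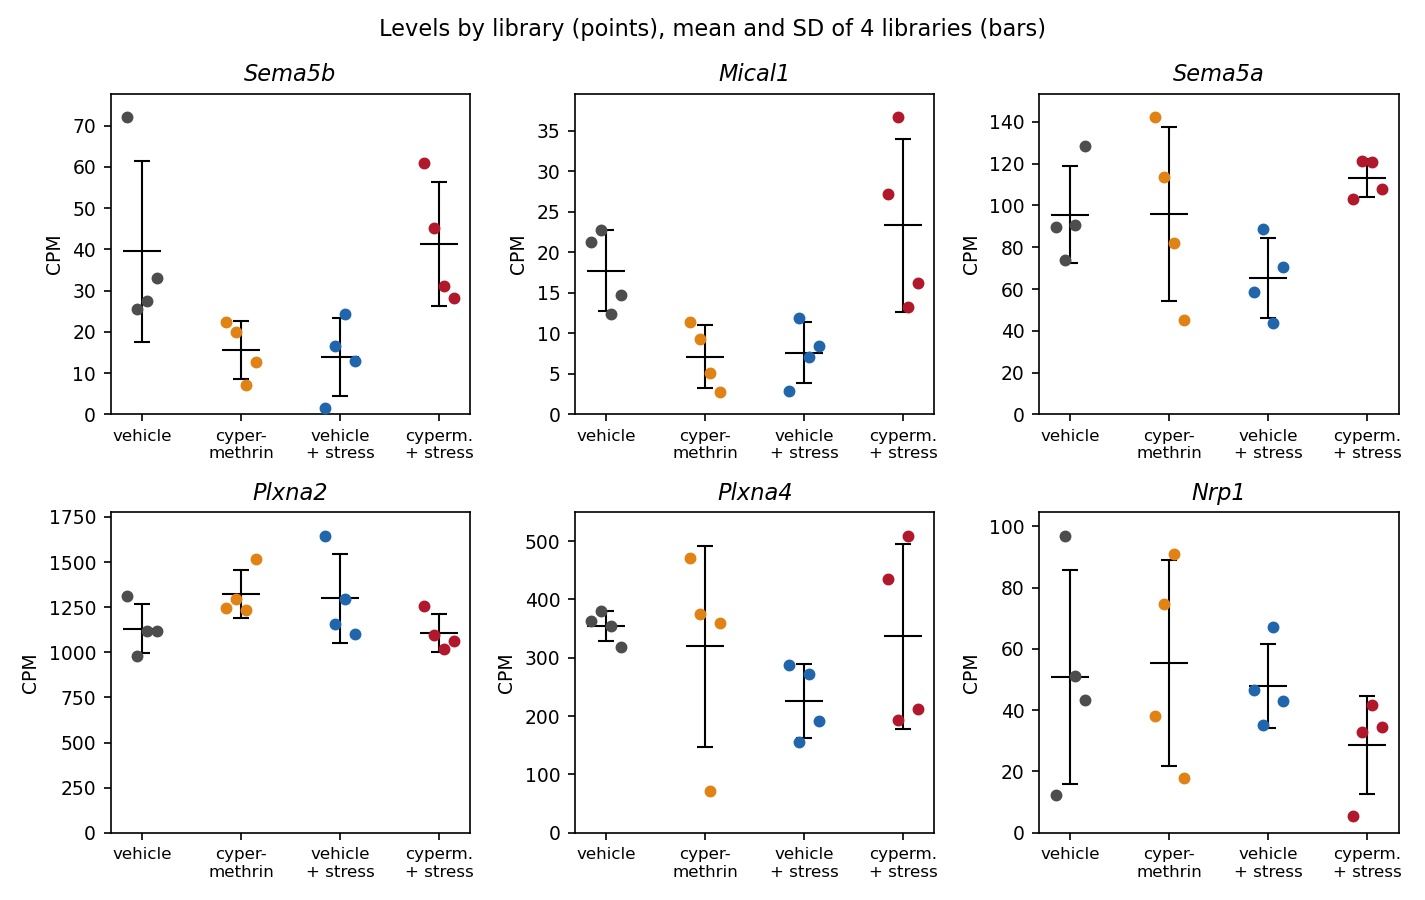
CPM of 5 members and of Mical1 in each library (points) by group, with the mean and SD of 4 libraries as bars; each axis starts at 0. In Sema5b and Mical1 the libraries with 1 exposure lie below those with neither and those with both, while Sema5a is low with stress alone and the groups of Plxna2, Plxna4 and Nrp1 overlap in most comparisons.

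The interaction asks whether cypermethrin acted differently with and without stress. For Sema5b the difference of the differences was 2.91 ± 0.81 on the log2 scale (SE, 95% interval 1.24 to 4.58; edgeR unadjusted p = 0.00134, adjusted p = 0.985), the smallest p of the family. It was 3.64 within the first library code and 1.86 within the second, and 2.44 to 3.31 when 1 library was left out. For Plxna2 the interaction was -0.45 ± 0.20 (SE; edgeR unadjusted p = 0.0328, adjusted p = 0.985): its group means were 1131 ± 138 CPM with neither exposure, 1323 ± 132 with cypermethrin, 1299 ± 246 with stress and 1108 ± 104 with both (SD, n = 4). Without vehicle stressed replicate 1, the highest library, it was -0.33 and Nrp2 took the place of Plxna2 beside Sema5b. With all 16 libraries, Sema5b and Plxna2 stood beside 4.7% of all genes with an unadjusted p under 0.05. Without that replicate, Sema5b and Nrp2 stood beside 4.28% of genes. Of the 29 members, 20 had a negative interaction and 9 a positive one, where 47.4% of all genes had a positive one, and the median was -0.13 against -0.04. The plexins were on the negative side in 7 of 8 cases, with Plxna4 the exception. Those of Plxna3 (-0.15 ± 0.37, SE), Plxnb1 (-0.31 ± 0.53), Plxnb2 (-0.16 ± 0.43) and Plxnd1 (-0.12 ± 0.39) were smaller than their SE. Vehicle stressed replicate 1 was the highest library of its group for Plxna1, Plxna2 and Plxna3, and the lowest for Plxnc1 and Plxnd1.

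**Figure D3:**
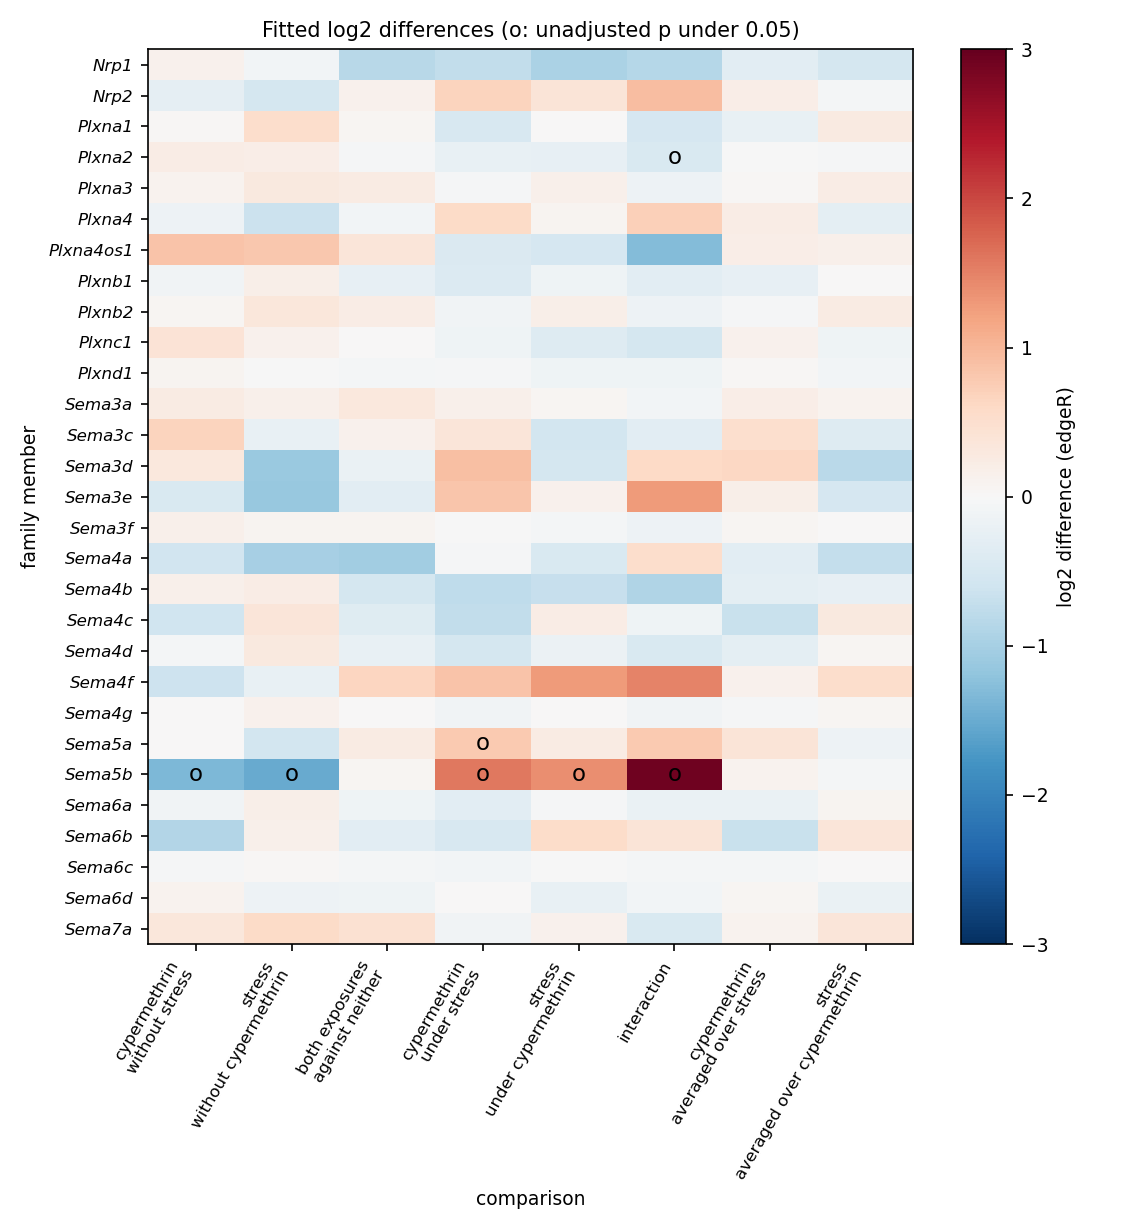
Fitted log2 difference of each of the 29 tested members (rows) in 8 comparisons (columns), red for higher and blue for lower, with a circle where the unadjusted p was under 0.05. Sema5b carries 5 of the 7 circles, Sema5a and Plxna2 1 each, and no difference passed the adjusted threshold.

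The arrangement of the Sema5b libraries was then counted across all genes, a rule formed after its values were seen. In 3 of 13224 genes (0.0227%), every library with 1 exposure lay below every library with neither and every library with both. Of the 29 members tested, Sema5b was the only one, and the opposite arrangement was seen in 0 genes. The other 2 genes were Mical1 and Ifnar2, a subunit of the type I interferon receptor. Leaving out vehicle stressed replicate 1 could only add genes to these 3, and it added none. Mical1 belongs to the pathway: it encodes an enzyme that binds the intracellular part of class A plexins and takes actin filaments apart by oxidation. Its libraries had 21.2, 22.7, 12.4 and 14.7 CPM with neither exposure, 11.4, 9.25, 5.05 and 2.80 with cypermethrin, 2.85, 11.9, 7.12 and 8.49 with stress, and 27.2, 36.7, 13.2 and 16.2 with both. Its interaction was 2.91 ± 0.90 (SE; edgeR unadjusted p = 0.0032, adjusted p = 0.985). Exons of Mical1 overlap Smpd2 on the opposite strand, so reads of the 2 genes could be mixed if the counting ignored strand.

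**Figure D4:**
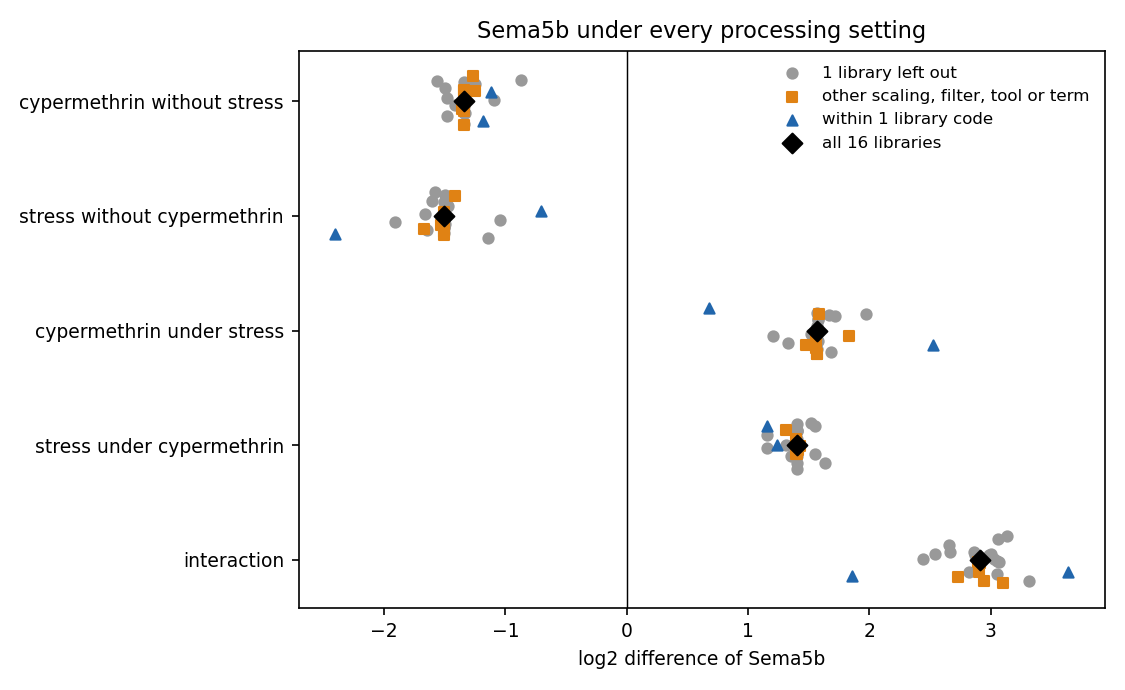
Log2 difference of Sema5b (horizontal axis) in 5 comparisons, with all 16 libraries (diamond), with 1 library left out (circles), with another scaling, filter, tool or term (squares) and within 1 library code (triangles). Each comparison kept its sign under every setting shown, while the values within the codes ranged from -2.40 to -0.70 for stress without cypermethrin. Sema5b was named for its small p-values in these same libraries, so a kept sign says little about stability.

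Beside the Sema5b values stand those of oligodendrocyte precursor markers. Of the 5 markers in the list, 2 were tested. The summed level of all 5 was 57.0 to 86.7 CPM with neither exposure and 39.8 to 70.9 with cypermethrin. It was 9.04 to 62.9 with stress and 62.7 to 74.0 with both. Most of it was Pdgfra, the receptor that marks these precursors and also some meningeal cells, at 62.9 ± 14.4, 45.8 ± 16.5, 29.3 ± 20.8 and 64.8 ± 7.18 CPM in the same order (SD, n = 4). Across 16 libraries Sema5b had a Pearson r of 0.622 with the score of the 2 tested markers (two-sided permutation p = 0.033, adjusted p = 0.189 over 261 pairs). The Spearman rho was 0.277 (permutation p = 0.3, adjusted p = 0.689). This r was 0.329 without the 2 libraries farthest from the median score, 1 of them vehicle stressed replicate 1, and 0.788 and 0.52 within the library codes. With the score of radial glia and intermediate progenitors, Sema5b had r = 0.596 (permutation p = 0.019, adjusted p = 0.127) and rho = 0.377 (permutation p = 0.15, adjusted p = 0.594), with r = 0.270 without the 2 farthest libraries and 0.727 and 0.493 within the codes. The summed level of these markers was 621 to 799 CPM with neither exposure and 747 to 882 with cypermethrin. It was 810 to 894 with stress and 703 to 824 with both, so it was highest with stress alone, where Sema5b was low. The score averages log2 values of the tested markers and so weighs them differently from the sum. Its r with the other 7 scores was smaller in size, from -0.370 to 0.438. None of these relations passed the adjusted threshold, and the part of these cells in the Sema5b values was not tested.

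Averaged over stress, cypermethrin gave no member with an unadjusted p under 0.05, beside 4.59% of all genes. The smallest p belonged to Sema4c, a ligand of Plxnb2, with group means of 34.6 ± 13.3 and 44.5 ± 38.5 CPM in the vehicle groups without and with stress and 22.7 ± 5.99 and 26.7 ± 10.1 CPM in the cypermethrin groups (SD, n = 4). Its difference of -0.67 ± 0.35 (SE; edgeR adjusted p = 0.981) was -0.27 without vehicle stressed replicate 1, which held 101 CPM, and -0.79 and -0.17 within the first and second code. Sema5a, next by p, had 0.40 ± 0.22 (SE; edgeR adjusted p = 0.981), and 0.70 and 0.28 within the codes. The 5 tested class 3 semaphorins were all fitted higher, from 0.07 to 0.61, where 51.1% of all genes were, and none passed the test. Averaged over cypermethrin, stress also gave no member with an unadjusted p under 0.05, beside 5.13% of all genes. Without vehicle stressed replicate 1, Plxnb3 did, as did 5.03% of genes, with the limit given above for its counts. Sema3d had 3.37, 9.08, 13.6 and 18.02 CPM in the vehicle non-stressed and 5.23, 6.58, 4.99 and 3.54 CPM in the vehicle stressed libraries, and 9.84, 14.5, 5.31 and 25.7 against 1.44, 15.5, 10.8 and 10.5 CPM with cypermethrin (-0.82 ± 0.54, SE; edgeR adjusted p = 0.96). The groups overlapped in both pairs, and the difference was -0.15 within the first library code and -1.20 within the second. Plxna1 was next, with 0.27 ± 0.19 (SE; edgeR adjusted p = 0.96), and with 0.12 without vehicle stressed replicate 1 and 0.45 and 0.11 within the codes.

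The intracellular effectors and partners of semaphorin signalling (44 of 45 listed genes tested) and the co-receptors and other ligands of the axis (24 of 30 tested) held no gene with an adjusted p under 0.05 in any comparison. For cypermethrin averaged over stress, the smallest unadjusted p in these lists belonged to Vcan, which encodes the matrix proteoglycan versican. Its group means were 2841 ± 596 CPM with neither exposure, 3769 ± 600.3 with cypermethrin, 2509 ± 229 with stress and 3110 ± 650 with both (SD, n = 4), a difference of 0.36 ± 0.11 (SE; edgeR adjusted p = 0.981). The kinase gene Pak3 had 297 ± 20.5 and 306 ± 37.1 CPM in the vehicle groups without and with stress and 226 ± 16.3 and 240 ± 43.7 CPM in the cypermethrin groups (-0.37 ± 0.13, SE; edgeR adjusted p = 0.981). For the 2 non-stressed groups, the lowest vehicle library of Pak3 at 279.9 CPM lay above the highest cypermethrin library at 248 CPM. Pak1, a second kinase downstream of Rac, had 242 ± 34.0 and 256 ± 75.6 CPM in the non-stressed and 356 ± 125 and 349 ± 84.5 CPM in the stressed groups (0.50 ± 0.17, SE, averaged over cypermethrin; edgeR adjusted p = 0.96). Gipc1, which binds the intracellular end of Nrp1, had 12.2 ± 7.63 CPM with cypermethrin alone and 32.6 ± 15.9 CPM with both (1.42 ± 0.64, SE; edgeR adjusted p = 0.997). Of the effectors, 14 of 44 were fitted higher for cypermethrin under stress (median -0.14) and 29 of 44 for stress averaged over cypermethrin (median 0.05), where 49% and 50% of all genes were, with medians of -0.01 and -0.00. These are the lowest and highest of the 8 comparisons, and the other 6 had 18 to 26 of 44.

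The other genes with the 2 smallest p-values of their list in a comparison had the same standing. For stress without cypermethrin these were the kinase genes Gsk3b (0.35 ± 0.14, SE) and Pak1 (0.56 ± 0.24), the Slit receptor gene Robo2 (-0.50 ± 0.22) and L1cam, a neuropilin co-receptor (0.32 ± 0.19). Without vehicle stressed replicate 1, Pak1 had 0.31 and L1cam 0.06. For cypermethrin without stress Vegfb, a ligand of the vascular endothelial growth factor family, had -1.01 ± 0.50 (SE), which was -0.16 within the first library code and -1.50 within the second. For stress under cypermethrin it had 1.02 ± 0.50, and 0.51 and 1.22 within the codes. For cypermethrin under stress Rhof had -2.30 ± 0.88 (SE), which was -0.93 without vehicle stressed replicate 1 and -4.10 and -0.69 within the codes, and the receptor gene Flt1 had 0.98 ± 0.58. For both exposures against neither, the matrix and adhesion genes Ncan and Nfasc had 0.25 ± 0.16 and -0.25 ± 0.16 (SE). Dpysl4, of the collapsin response mediator family, had an interaction of -1.22 ± 0.58 (SE). Flt4 had 1.02 ± 0.48 for cypermethrin averaged over stress, and Rnd1, a GTPase that binds plexins, had -2.08 ± 0.90 for stress averaged over cypermethrin (SE). Their edgeR adjusted p-values lay between 0.902 and 1.

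The members were also set against marker scores of 9 cell types over the 16 libraries, 261 pairs in all, since the captured material held other cells. Pearson's r passed an adjusted permutation p of 0.05 (two-sided) in 4 pairs, and Spearman's rho in none of them. Plxna1 was lower where the score of oligodendrocyte precursor markers was higher (r = -0.830, permutation p = 0.00015, adjusted p = 0.0392; rho = -0.668, permutation p = 0.0055, adjusted p = 0.288). This r was -0.711 without the 2 libraries farthest from the median score and -0.845 and -0.797 within the library codes, and the score rests on 2 tested markers. Sema3a was higher where microglia and macrophage markers were (r = 0.781, permutation p = 0.00046, adjusted p = 0.045; rho = 0.771, permutation p = 0.00071, adjusted p = 0.153). Its r was 0.658 without the 2 farthest libraries and 0.505 and 0.890 within the codes. Plxna3 was lower where pericyte and meningeal markers were higher (r = -0.760, permutation p = 0.00067, adjusted p = 0.045; rho = -0.647, permutation p = 0.008, adjusted p = 0.296), with -0.587 without the 2 farthest and -0.654 and -0.804 within the codes. The relation of Sema6b with the same score (r = -0.796, permutation p = 0.00069, adjusted p = 0.045; rho = -0.577, permutation p = 0.022, adjusted p = 0.392) was -0.445 without the 2 farthest libraries, the largest drop of the 4, and -0.770 and -0.697 within the codes. All libraries share scaling by their total counts, which enters both axes.

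**Figure D5:**
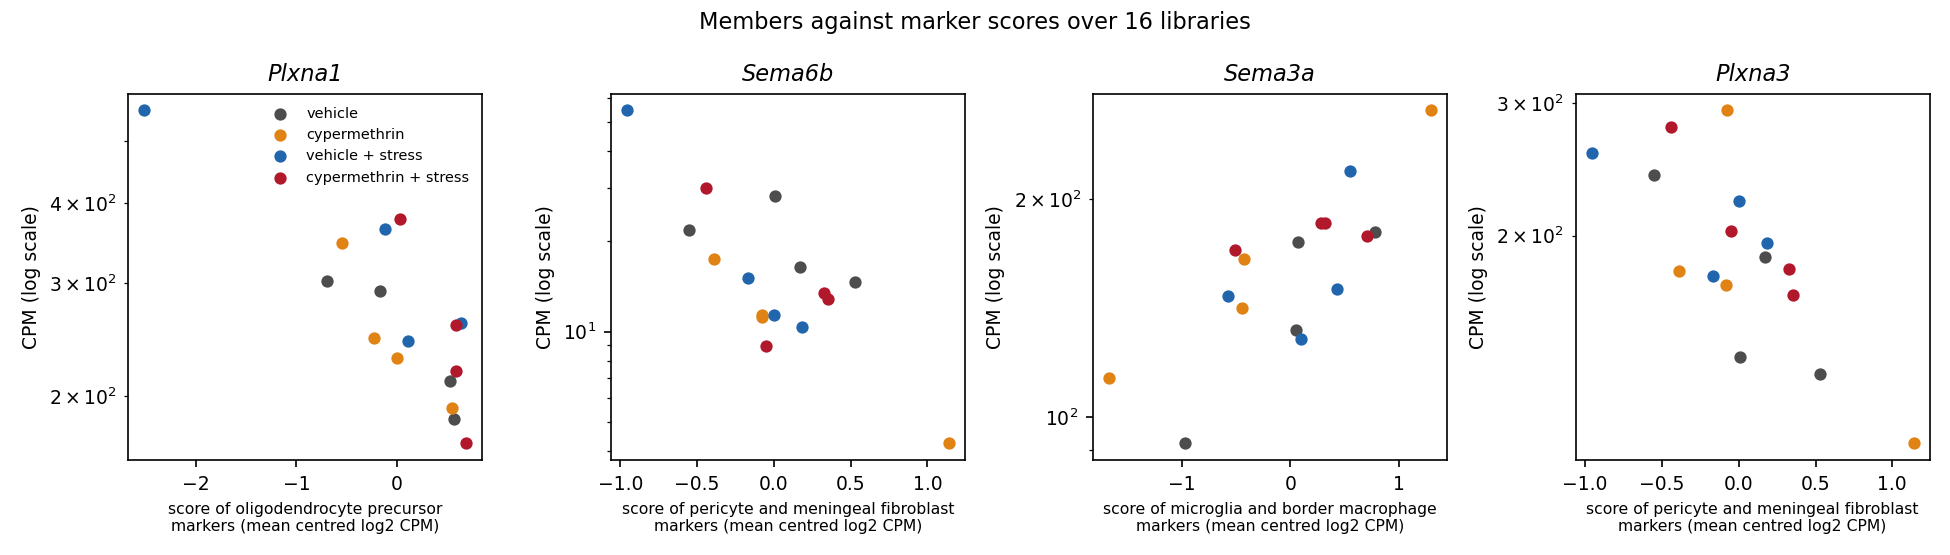
CPM of 4 members (log scale) against marker scores (mean centred log2 CPM) in 16 libraries, coloured by group. Plxna1, Sema6b and Plxna3 slope downwards (r of -0.830, -0.796 and -0.760) and Sema3a upwards (r of 0.781), with the vehicle stressed library that went against its sex label at the far left for Plxna1, Sema6b and Plxna3.

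Within the family, 3 pairs were compared across the 16 libraries. The class 5 semaphorins Sema5a and Sema5b had r = 0.473 (two-sided permutation p = 0.0626, adjusted p = 0.165 over 3 pairs) and rho = 0.556 (permutation p = 0.0267, adjusted p = 0.0802), with r = 0.626 without the 2 libraries farthest from the median of Sema5a and 0.627 and 0.448 within the codes. Plxna4 and its antisense transcript Plxna4os1 had r = 0.412 (permutation p = 0.11, adjusted p = 0.165) and rho = 0.265 (permutation p = 0.321, adjusted p = 0.481), with 0.356 without the 2 farthest libraries and with -0.0831 and 0.752 within the codes. The 2 neuropilins had r = -0.131 (permutation p = 0.623) and rho = -0.129 (permutation p = 0.632), with -0.102 without the 2 farthest libraries and 0.0195 and -0.406 within the codes. None of these relations passed the adjusted threshold.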

How the data were processed

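The authors deposited 1 table of whole-number counts per gene symbol, with 24539 genes and 16 libraries. Reads were aligned with STAR 2.5 to mm10, per the submitters' processing notes; for the counter, its annotation and strand setting the sources used here give no name. Genes passing filterByExpr (minimum count 10) were tested, 13224 in all, with TMM scaling and edgeR 4.0.16's quasi-likelihood test (R 4.3.3) on 4 group means, and p-values were adjusted over all of them. Total counts ranged from 2291283 to 4324129 per library, and the number of embryos limits the precision. CPM used TMM-scaled totals, and kilobases came from GENCODE vM21 (GRCm38, the same build). SE is the fitted difference divided by the root of the F statistic. Alternatives were DESeq2 1.42.0, limma 3.58.1 (voom), other scalings and filters, library code, and each library left out. Named per comparison were the members with an unadjusted p under 0.05, or otherwise the 2 smallest p-values, and the 2 smallest per pathway list. The members, lists and tests were chosen with earlier results of these data known. Replicate numbers follow accession order. The edgeR, DESeq2 and voom fits were checked on simulated counts for cypermethrin without stress only, with changes planted in genes above the median level. The other comparisons and the permutation tests were not checked in this way.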

Additional observations from a re-analysis of the deposited data

Results flagged for a closer look

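Within the groups of 4, 14 of 116 combinations of member and group held a library set apart from the others on the log2 scale. A share of 5% would be about 5.8, if the combinations were independent and log2 levels normally distributed. The members share the same libraries, so they are not independent. Since 0.1 CPM was added before taking logs, libraries without a count lie far below the others. The 14 can therefore not be read as an excess. The library stood low in 9 and high in 5. Cypermethrin stressed replicate 1 held 5.49 CPM of Nrp1 (others 32.8 to 41.7), 1.44 CPM of Sema3d (others 10.5 to 15.5), 0 of Sema4a (others 12.5 to 19.4) and 53.5 CPM of Sema3f (others 25.9 to 28.0). Vehicle stressed replicate 1, whose sex-linked genes go against its label, held 41.9 CPM of Plxnc1 (others 90.8 to 95.2), 1.90 CPM of Sema4b (others 25.7 to 43.5) and 0 of Sema4f (others 17.5 to 28.8). In vehicle stressed replicate 2, Plxnd1 stood at 256 CPM (others 151 to 163).

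Cypermethrin non-stressed replicate 3 held 71.2 CPM of Plxna4 (others 359 to 472) and 98.6 CPM of Plxnb2 (others 72.9 to 75.2). Replicate 2 of the same group held 37.3 CPM of Nrp2 (others 74.4 to 82.7), and replicate 4 held 282 CPM of Sema4g (others 227 to 231). In vehicle non-stressed replicate 2, Plxna4os1 stood at 1.34 CPM (others 7.74 to 8.24) and Sema4b at 37.4 CPM (others 15.8 to 17.9).

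Sema5b stood out because every library with 1 exposure lay below every library with neither and every library with both. The interaction of 2.91 on the log2 scale had an adjusted p of 0.985 in edgeR's quasi-likelihood test.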

How the results depend on the processing

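No family member passed the adjusted threshold under any alternative (smallest adjusted p 0.331), and no fitted difference of a named gene changed sign. The named genes were chosen mostly by their small p-values in these same libraries, so a kept sign says little about stability. The number of genes called over the whole table was 0 in all 8 comparisons. Within the first library code it was 2 for cypermethrin without stress, 45 for stress without cypermethrin, 13 for both exposures against neither, 57 for cypermethrin under stress, 3 for stress under cypermethrin, 9 for the interaction, 14 for cypermethrin averaged over stress and 7 for stress averaged over cypermethrin; that code has 1 cypermethrin non-stressed library, taken to vary like the others. DESeq2 called 2 genes for cypermethrin under stress and 1 for cypermethrin averaged over stress. Leaving out 1 library gave 0 to 1 in these 2 comparisons (1 without vehicle stressed replicate 3) and 0 in the others. The median level of the family, 2.75 in log2 CPM per kb, was 3.44 with the longest transcript as length and 2.69 to 2.79 with 1 library left out. With 1 library left out, the members with an unadjusted p under 0.05 numbered 0 to 1 for cypermethrin without stress, 1 to 4 for stress without cypermethrin and for cypermethrin under stress, 1 to 3 for the interaction and 0 to 2 in the other 4 comparisons. Plxnb3 passed the filter on low counts in some of these fits, through its counts in non-stressed libraries, so its p-values for stress carry no weight. Leaving out vehicle stressed replicate 1 for its sex-linked genes was chosen after seeing the data. The causes of these shifts were not tested. No paired analysis was possible because the labels carry no replicate numbers. Members with few counts allow only large differences to be detected.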
